A study of Drosophila melanogaster with 3 samples.

Results

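Oxidative phosphorylation is carried out by the 5 complexes of the inner mitochondrial membrane. Complex I (NADH dehydrogenase) and complex II (succinate dehydrogenase) pass electrons to ubiquinone, complex III (ubiquinol-cytochrome c reductase) passes them to cytochrome c and complex IV (cytochrome c oxidase) passes them to oxygen. Complexes I, III and IV pump protons, and complex V (ATP synthase) uses the proton gradient to make ATP. A few of the subunits are encoded in the mitochondrial genome and all the others by genes on the nuclear chromosomes, so their promoters can be read in chromatin of the nucleus. In Drosophila several subunits also have like copies elsewhere in the genome, given the same symbol with a closing L.

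The genes described here are the protein-coding genes of the nuclear chromosomes in the Ensembl annotation of BDGP6 whose symbol starts with ND-, UQCR-, ATPsyn or COX and a digit, or is one of the Sdh symbols of succinate dehydrogenase (SdhA to SdhD). The rule finds 87 genes among the 13968 nuclear protein-coding genes, with 40 in complex I, 7 in complex II, 9 in complex III, 16 in complex IV and 15 in complex V. The rule goes by symbol and uses no binding value. It leaves out subunits with other names, which are given further on.

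The assay was chromatin immunoprecipitation followed by sequencing of a tagged Fruitless (Fru) protein, a BTB zinc-finger transcription factor best known for its part in male courtship. The animals were whole wandering larvae of the third instar, both sexes pooled and age not known, of the strain fru-MiMIC-GFP, in which an exon for eGFP sits in an intron of the endogenous fru gene, and the fusion protein was precipitated with an anti-GFP antibody. All 3 biological replicates belong to this 1 group and come from 1 line, so no comparison between conditions was possible, and which Fru isoforms carry the tag is not given in the sources used here. The authors' lists hold regions without read counts, so the depth of the libraries is unknown, and a control experiment named in the labels was not analysed here. The animals were taken whole, so binding in few cells and weaker binding in many cannot be told apart.

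The authors' thresholded list, made from the pooled replicates, holds 8996 regions on the genome build dm6. Each has a summit and a signal value, a score of the authors with no fixed range, used here only to give a region its place within a list (1 is the strongest). A gene was counted as having a promoter summit when a summit fell no farther than 500 bp from one of its transcription start sites (TSSs). Each replicate has a list of 30000 regions of peaks and background, of which the strongest 8996 were taken, and a pooled region counted as found in a replicate when the summits lay within 100 bp. With 1 group, no test was made across genes, and counts are to be read against the share over all nuclear protein-coding genes, with no test of the difference.

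Of the 87 genes, 19 had a promoter summit (21.8%), and 68 had none. The share among all nuclear protein-coding genes was 24.6% (3436 genes), close to that of the respiratory genes. In the replicates the respiratory genes with a promoter summit numbered 20, 24 and 18, a mean of 23.8% ± 3.51 (SD, n = 3), against 25.2%, 27.3% and 24.3% of all genes, a mean of 25.6% ± 1.56 (SD, n = 3). The gap between the means was smaller than the SD of the respiratory genes and larger than that of all genes. By replicate the respiratory shares were 23.0%, 27.6% and 20.7%. They were below those of all genes in replicates 1 and 3 and slightly above in replicate 2. Given only to the gene with the nearest TSS, a summit was counted at 12 respiratory genes (13.8%, against 19.6% of all genes), and required in all 3 replicates at 9 (10.3%, against 16.7%), or at 12 (13.8%, against 18.2%) with summits matched within 250 bp. Required in both other replicates, a summit of the pooled list was counted at 12 genes without replicate 1 (13.8%, against 18.6%), 11 without replicate 2 (12.6%, against 18.3%) and 14 without replicate 3 (16.1%, against 18.8%). Under each of these rules the respiratory share was the lower one. This did not hold for every way of counting. With canonical TSSs only, both shares were 21.8%. Without the 20 copies named with L whose parent gene is also counted, the respiratory share was 28.4%, above the 24.6% of all genes. Among the 19 genes with a summit were 9 of complex I, 2 of complex II, 5 of complex IV and 3 of complex V, and no gene of complex III.

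**Figure D1:**
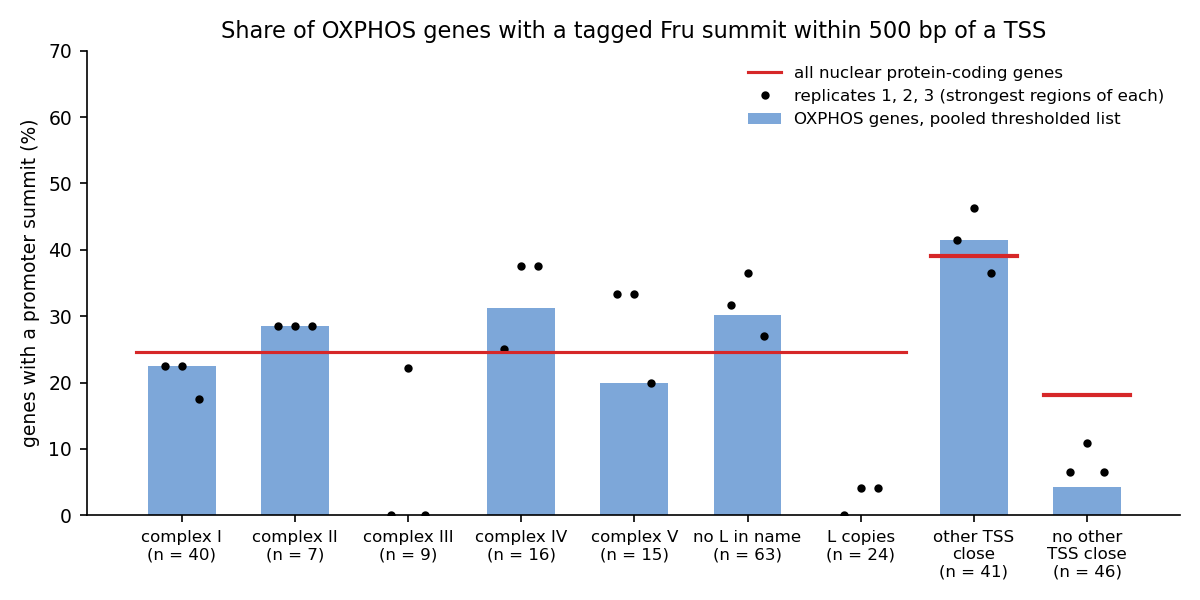
Share of respiratory (OXPHOS) genes with a summit of tagged Fru within 500 bp of a TSS, in percent, by respiratory complex, by name and by whether another gene's TSS lies within 500 bp. Bars give the pooled thresholded list, points the 3 replicates and red lines the share of all nuclear protein-coding genes (24.6%, and 39.1% and 18.1% for genes with and without another TSS close by). The bar is at 0 for complex III and for the copies named with L, and stands at 41.5% and 4.35% for the genes with and without a close neighbour.

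The sequences at some of these summits are shown, all but that of COX7B because they hold the words compared further on. They therefore do not give the share of summits with such a word. Each is read 5′ to 3′ on the strand of the respiratory gene from the RefSeq dm6 genome, without annotated exons, and has its summit at base 76, or at base 21 for ND-42. Capitals mark TATAAA in ND-ASHI, the E-box CAGCTG in ND-51 and SdhD, the DRE word TATCGATA in SdhC and the word TTACATAA of the NRG element in ND-MNLL. In ND-SGDH and ND-42 they mark TTATATAA, another NRG word, together with TATAAA or its complement, which overlaps it or lies near it. COX7B holds none of the words searched. Neither did the exon-free sequences taken near the summits of ND-24, COX5B, COX5A, ATPsynbeta and ATPsynCF6, which are not shown.
ND-ASHI, chrX:6679321-6679471, minus strand: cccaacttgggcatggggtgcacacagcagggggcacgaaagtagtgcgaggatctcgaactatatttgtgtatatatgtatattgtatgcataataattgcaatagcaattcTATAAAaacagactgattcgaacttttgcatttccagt
ND-51, chr2L:6062764-6062914, minus strand: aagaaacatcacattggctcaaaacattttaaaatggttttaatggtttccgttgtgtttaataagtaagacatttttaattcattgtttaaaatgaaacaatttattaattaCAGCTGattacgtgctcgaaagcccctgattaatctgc
ND-SGDH, chr3L:12138592-12138742, minus strand: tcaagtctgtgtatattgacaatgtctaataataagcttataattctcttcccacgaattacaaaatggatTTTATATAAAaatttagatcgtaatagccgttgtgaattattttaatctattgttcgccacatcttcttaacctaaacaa
ND-42, chr3R:22027481-22027576, plus strand: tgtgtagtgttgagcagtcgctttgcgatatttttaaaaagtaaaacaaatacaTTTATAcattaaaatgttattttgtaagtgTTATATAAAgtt
SdhC, chr3R:11210072-11210222, minus strand: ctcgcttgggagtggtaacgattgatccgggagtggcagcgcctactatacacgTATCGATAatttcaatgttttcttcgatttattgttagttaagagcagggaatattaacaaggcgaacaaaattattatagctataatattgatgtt
ND-MNLL, chrX:7893803-7893953, minus strand: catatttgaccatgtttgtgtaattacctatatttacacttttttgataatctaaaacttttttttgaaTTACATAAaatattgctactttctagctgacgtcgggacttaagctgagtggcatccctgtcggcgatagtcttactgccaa
SdhD, chr3R:23760601-23760719, minus strand: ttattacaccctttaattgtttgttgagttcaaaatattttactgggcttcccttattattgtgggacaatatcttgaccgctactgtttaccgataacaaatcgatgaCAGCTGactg
COX7B, chr3L:17425283-17425433, plus strand: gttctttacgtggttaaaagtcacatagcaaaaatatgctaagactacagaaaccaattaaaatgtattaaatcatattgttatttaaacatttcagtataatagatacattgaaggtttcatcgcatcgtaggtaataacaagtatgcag

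Complex I had promoter summits at 9 of its 40 genes (22.5%), with 9, 9 and 7 genes in the replicates (20.8% ± 2.89, SD, n = 3). The strongest lay at ND-ASHI (X, 6677262 to 6679118, minus strand), an accessory subunit of the membrane arm. It held place 475 with a signal value of 874.6, and places 476, 504 and 483 in the replicates. Its summit, at 6679396 in an intron of Fum1, lay 278 bp upstream of the nearest ND-ASHI TSS. Of the 19 respiratory genes it alone was in the strongest 899 places of the thresholded list, and its places were nearly the same in every list. ND-MWFE (2R, 13158666 to 13160190, plus strand), another membrane-arm subunit, followed at place 1024 with a signal value of 566.4, and at places 651, 1060 and 1814 in the replicates. Its summit at 13158470 lay 196 bp upstream, and a second, weaker summit at place 6770 lay 6 bp from the TSS.

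ND-24 (X, 17632089 to 17633509, plus strand) and ND-51 (2L, 6060842 to 6062757, minus strand) encode core subunits of the module that takes electrons from NADH. ND-24 held place 1487 with a signal value of 449.0 and its summit 78 bp downstream of a TSS, at 17632167 in its 5′ UTR. It was at places 1168 and 1917 in replicates 2 and 3 and had no summit within 100 bp in replicate 1. ND-51 held place 1738 with a signal value of 402.3, and places 1195, 1483 and 2730 in the replicates, 82 bp upstream of its TSS at summit 6062839. These were the only pair with a promoter summit among the 7 core subunits of the peripheral arm, all encoded in the nucleus, a class split off after the values were seen. The core genes ND-75, ND-49, ND-30, ND-23 and ND-20 had none. Among the 27 other complex I genes without an L name, 7 had one (25.9%).

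ND-SGDH (3L, 12137496 to 12138584, minus strand), also of the membrane arm, held place 1937 with a signal value of 374.8, and places 1384, 3396 and 2109 in the replicates. Its summit at 12138667 lay 83 bp upstream. The other accessory subunits with a summit were ND-42 at place 1992, ND-MNLL at 3741, ND-B22 at 6304 and ND-B18 at 6799. ND-42 and ND-MNLL had them 208 and 80 bp upstream, and ND-B22 and ND-B18 36 and 76 bp upstream of the nearest TSS but within the 5′ UTR of a longer transcript. ND-B22 was at place 14482 in replicate 2 and ND-B18 at 9608 in replicate 3, outside the 8996 strongest. ND-42 had no summit within 500 bp of its TSS in the whole list of replicate 3.

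In complex II, summits lay at SdhC and SdhD, the membrane anchors of succinate dehydrogenase, and at neither of the catalytic subunits SdhA and SdhB. The count was 2 of 7 genes (28.6%), the same in every replicate as in the pooled regions. SdhC (3R, 11208887 to 11209849, minus strand) held place 3384 with a signal value of 252.3, and places 3823, 4391 and 3166 in the replicates. Its summit at 11210147 lay 298 bp upstream, the farthest among the 19 genes. SdhD (3R, 23759483 to 23760600, minus strand) held place 7625 with a signal value of 123.3, and places 8528 and 7500 in replicates 2 and 3, and its summit at 23760644 lay 44 bp upstream. In replicate 1 its promoter summit was at place 7596, 60 bp downstream and thus more than 100 bp away. SdhD was the weakest of the 19. SdhB, the iron-sulfur subunit, had a region only below the threshold, at place 15298 of the whole pooled list, and the summit nearest to SdhA, the flavoprotein, lay 858 bp from a TSS.

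Complex III had no promoter summit at any of its 9 genes. These are UQCR-C1, UQCR-C2, UQCR-Q, UQCR-14, UQCR-11 and UQCR-6.4, with the copies UQCR-14L, UQCR-11L and UQCR-6.4L. Replicate 2 had a summit at 2 of them, UQCR-Q (place 6857) and UQCR-14 (place 8714), and the other replicates at none, a mean of 7.41% ± 12.8 (SD, n = 3). UQCR-Q also stood closest to the threshold, at place 9423 of the whole pooled list, with UQCR-C2 at 19184. With 9 genes, 1 gene is a large share, and the spread between replicates exceeded the mean.

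Complex IV had summits at 5 of 16 genes (31.2%), with 4, 6 and 6 genes in the replicates (33.3% ± 7.22, SD, n = 3). All 5 encode nuclear subunits that surround the catalytic core made in mitochondria. COX7B (3L, 17425477 to 17426282, plus strand) held place 2601 with a signal value of 305.7, and places 2115, 3754 and 2787 in the replicates. Its summit at 17425358 lay 119 bp upstream. COX5B (2L, 6557800 to 6559308, plus strand) held place 3435 with a signal value of 249.9, and places 3831, 3567 and 3570 in the replicates, with its summit at 6557540 lying 260 bp upstream. COX5A (3R, 11819359 to 11820299, plus strand) held place 3477 with a signal value of 247.2, and places 2457, 6162 and 4068. These 3 genes had their summits among the strongest 8996 in every replicate. COX5A had its summit at 11819520, 79 bp upstream of the nearest TSS and in an intron of a longer transcript.

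COX6B (X, 19740537 to 19744335, minus strand) held place 4620 with a signal value of 197.1, and places 3000, 2585 and 10008 in the replicates, with its summit at 19744370 lying 35 bp upstream. COX7C (2R, 10048353 to 10050066, plus strand) held place 6964 with a signal value of 135.2, places 13961, 7236 and 6853, and its summit at 10048533, 180 bp downstream in its own intron and in the 5′ UTR of an overlapping gene. Each of these was outside the 8996 strongest regions in 1 replicate, COX6B in replicate 3 and COX7C in replicate 1. Among the complex IV genes without an L name, 5 of 8 had a summit (62.5%; 58.3% ± 7.22 over replicates, SD, n = 3), against 24.6% of all genes, and COX4, COX7A and COX8 had none. Of these 8 genes, 7 had the TSS of another protein-coding gene within 500 bp (87.5%, against 30.8% of all genes). All 5 summits lay within 500 bp of such a TSS. Among the 7 genes with such a neighbour 5 had a summit (71.4%), against 39.1% of all genes so placed. Leaving out only the complex IV copies whose parent gene is also counted gave 5 of 11 (45.5%). These shares rest on few genes.

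Complex V had summits at 3 of 15 genes (20.0%), with 5, 5 and 3 genes in the replicates (28.9% ± 7.70, SD, n = 3). ATPsynF (2R, 24599088 to 24599821, minus strand), a subunit of the membrane part, held place 6248 with a signal value of 149.3 and its summit at 24599885, 64 bp upstream. It was at places 4897 and 6453 in replicates 1 and 2 and its replicate 3 summit, at place 8337, lay farther upstream than 100 bp from the pooled one. ATPsynbeta (4, 1031484 to 1034917, plus strand), the catalytic subunit, held place 6545 with a signal value of 143.1, and places 5357 and 5546 in replicates 1 and 2. In replicate 3 it had a promoter summit at place 6471, 147 bp downstream of a TSS, more than 100 bp from the pooled one. Its summit at 1031824 lay 40 bp upstream of the nearest TSS, in the 5′ UTR of a longer transcript. ATPsynCF6 (3R, 23355220 to 23356064, minus strand), coupling factor 6 of the stalk, held place 6791 with a signal value of 138, places 6997, 15210 and 5548 in the replicates, and its summit at 23356241, 177 bp upstream. All 3 were in the weaker 50% of the list, and none was found within 100 bp among the 8996 strongest regions of all 3 replicates, although within 250 bp ATPsynF and ATPsynbeta were. At 100 bp the count for complex V was 0 when summits had to be found in both replicates 2 and 3, and 1 when they had to be found in both replicates 1 and 3.

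**Figure D2:**
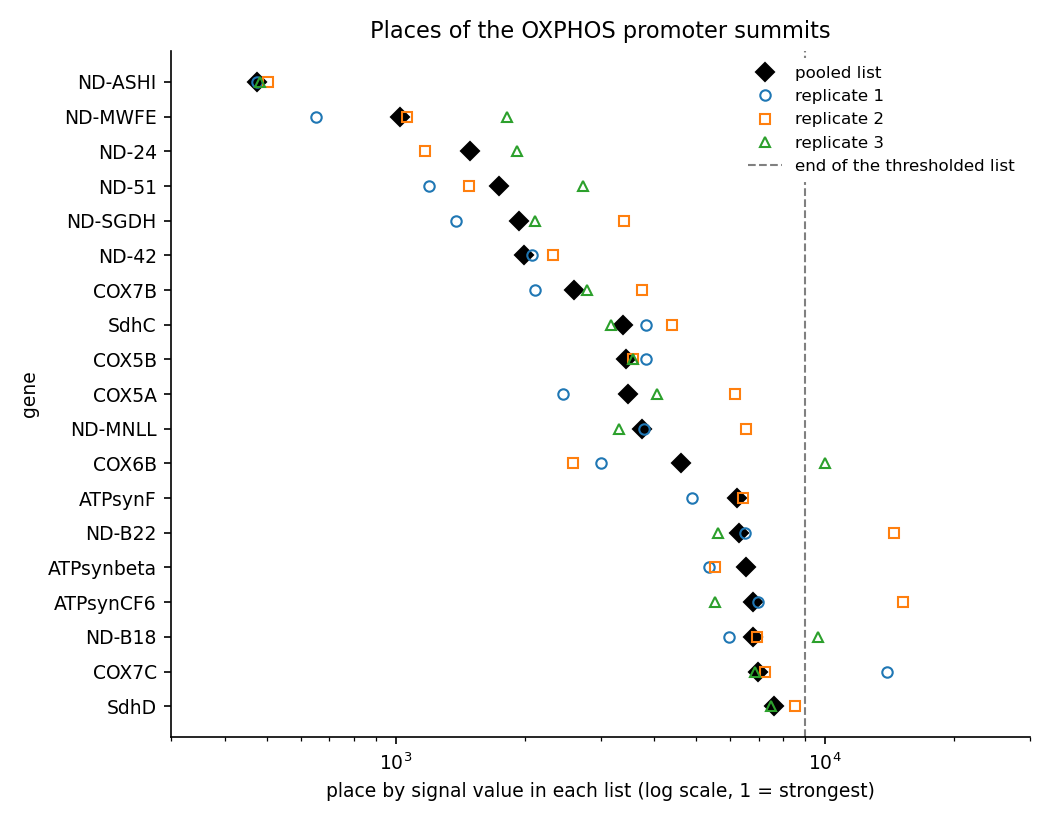
Place by signal value (log scale, 1 is the strongest) of the promoter summit of each of the 19 respiratory genes, in the pooled list (diamonds) and in each replicate where a summit lay within 100 bp (open symbols). The dashed line marks place 8996, the end of the thresholded list. ND-ASHI sits between 475 and 504 in every list, whereas ATPsynCF6 ranges from 5548 to 15210.

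Over all 19 genes the median place was 3477, against 3303 for all genes with a promoter summit. The strongest 899 places of the list held the summit of 1 of 19 (5.26%) and of 16.3% of all genes with a summit, and the stronger 50% held 11 of 19 (57.9%) and 63.0%. As given above, 9 respiratory genes had a summit found in all 3 replicates. As a share of the genes with a summit this was 47.4%, against 66.6%. The 9 were ND-ASHI, ND-MWFE, ND-51, ND-SGDH, COX7B, SdhC, COX5B, COX5A and ND-MNLL. The 8 of them other than ND-MNLL were also among the 10 strongest, in which ND-24 and ND-42 were the others. Where a replicate had a summit within 100 bp, it lay between 0 and 84 bp from the pooled one, a range that the 100 bp limit bounds. Replicate summits farther away, as given above for SdhD, ATPsynF and ATPsynbeta, are not part of it.

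Of the 68 genes without a promoter summit, 13 had a region in the whole pooled list below the threshold and 55 had no region in it within 500 bp of a TSS. With these, 32 of 87 had a region (36.8%), against 40.1% of all genes. Closest below the threshold were UQCR-Q (9423), ND-13B (10111), COX7AL2 (10516), ND-39 (11135) and ND-23 (12034). The others were ATPsynC, ND-B14.5B, SdhB, ATPsynD, ND-75, UQCR-C2, ND-AGGG and ND-MLRQ, between places 14668 and 21514. ATPsynC encodes the ring that turns with the passage of protons and ND-75 the largest core subunit of complex I. The 500 bp limit cut through no dense group of summits: the farthest summit inside it was that of SdhC at 298 bp, and the nearest outside it were those of COX7AL2 at 570 bp, ATPsynE at 784, ND-75 at 801, UQCR-14 at 833 and SdhA at 858 bp.

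Some genes without a pooled promoter summit had one among the strongest regions of single replicates. ATPsynE had one in replicates 1 and 2, at places 2260 and 6388, 35 and 24 bp downstream of its TSS, and none in replicate 3. ATPsyngamma, of the central stalk, had one in the same pair of replicates at places 7180 and 7657, and COX7AL2 in replicates 2 and 3 at 4306 and 4924. ND-13B, ND-B17, UQCR-14, UQCR-Q, COX8 and ATPsynC had one in 1 replicate. A summit in every replicate was seen at 12 of the 87 genes and in no replicate at 59.

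The genes of complex I in none of the groups above, with neither a pooled summit nor a region below the threshold, were ND-13A, ND-15, ND-18, ND-19, ND-20, ND-30, ND-49, ND-ACP, ND-B12, ND-B14, ND-B14.5A, ND-B14.7, ND-B15, ND-B16.6, ND-B17.2, ND-B8 and ND-PDSW. In complex IV they were COX4 and COX7A, in complex III UQCR-C1, UQCR-11 and UQCR-6.4, and in complex V ATPsynB, ATPsynG, ATPsynO and ATPsyndelta. They include UQCR-C1 of the matrix face of complex III, and ATPsynO and ATPsynB of the peripheral stalk.

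**Figure D3:**
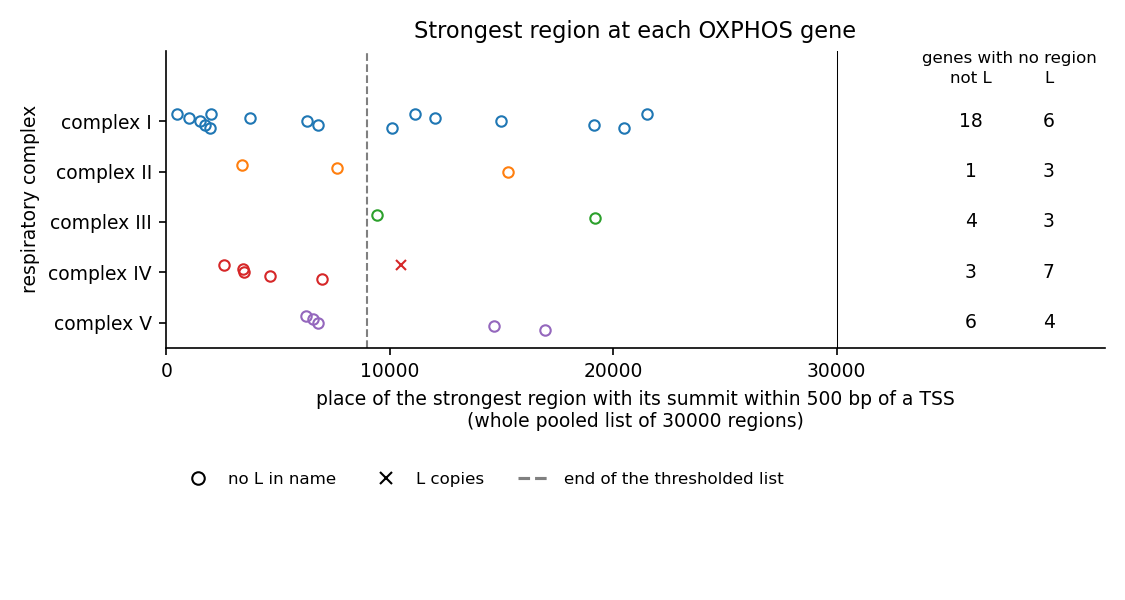
Place, by signal value in the whole pooled list of 30000 regions, of the strongest region with its summit within 500 bp of a TSS of each respiratory gene, by complex. Circles are genes without an L name, the cross is a copy named with L, the dashed line is the end of the thresholded list, and the numbers at right count the genes with no such region. Of the 24 copies, 1 (COX7AL2) has a region, below the threshold.

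The copies named with L stood at 0 in the pooled list. None of the 24 had a promoter summit, against 19 of the 63 other genes (30.2%). In the replicates 0, 1 and 1 copies had one (2.78% ± 2.41, SD, n = 3), in both cases COX7AL2, against 20, 23 and 17 of the others (31.7% ± 4.76). The copies are ND-20L, ND-24L, ND-49L, ND-51L1, ND-51L2, ND-B14.5AL, SdhAL, SdhBL, SdhCL, UQCR-11L, UQCR-14L, UQCR-6.4L, COX4L, COX5BL, COX6AL, COX6AL2, COX6CL, COX7AL, COX7AL2, COX7CL, ATPsynCF6L, ATPsynGL, ATPsynbetaL and ATPsynepsilonL. For 20 of them a gene of the same symbol without the L is also among the 87, and of those 18 parent genes 7 had a summit, namely ND-24, ND-51, SdhC, COX5B, COX7C, ATPsynCF6 and ATPsynbeta. How reads that match a gene and its copy equally were treated is not given in the sources used here.

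The copies also differed from the other genes in ways that move with the count. They are short, with a median length of 744 bp against 1178 bp for the others and 2164.5 bp for all genes, and 21 of 24 have 1 annotated TSS. The TSS of another protein-coding gene lay within 500 bp of a TSS of 3 of the 24 (12.5%) and of 38 of the 63 others (60.3%), against 30.8% of all genes. The part of these properties in the difference was not tested. Among all 87 respiratory genes, those with 1 TSS had a summit in 6 of 52 cases (11.5%, against 17.9% of all genes with 1 TSS) and those with more in 13 of 35 (37.1%, against 43.2%).

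Most respiratory summits lay at a promoter shared with another gene. For 17 of 19 the same summit was within 500 bp of another protein-coding gene's TSS (89.5%), against 47.6% of all genes with a promoter summit. This was not particular to the respiratory genes. Of the mitochondrial ribosomal protein genes with a promoter summit, 32 of 34 shared it (94.1%), and of the cytoplasmic ones 27 of 56 (48.2%). A neighbour transcribed divergently, away from the respiratory gene, was present at 16 of the 19. The neighbour's TSS was closer to the gene's strongest summit than the respiratory gene's own in 8 cases. The respiratory gene's own was closer in 9 (ND-B22 and SdhD, with no neighbour in reach, among them). The 2 were equal where ND-MNLL shares its TSS with CG45089 and COX6B with CG18809.

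The 8 respiratory genes whose neighbour lay closer to the strongest summit were ND-ASHI, ND-MWFE, ND-42, SdhC, COX5B, COX7C, ATPsynCF6 and ATPsynF. The neighbours' products have varied roles. The ND-ASHI summit lay 244 bp from a TSS of Fum1, which encodes fumarase of the TCA cycle, and the ND-42 summit 21 bp from the TSS of Cchl, which encodes the lyase that attaches haem to cytochrome c. The strongest ND-MWFE summit lay 25 bp from TppII, which encodes a large peptidase, whereas the weaker one, at place 6770, lay 6 bp from the TSS of ND-MWFE. The COX5B summit lay 38 bp from IFT52, a gene of intraflagellar transport. The ATPsynCF6 summit lay 37 bp from Sec13, of the COPII vesicle coat and nuclear pore, and the SdhC summit 100 bp from Tctp. The COX7C summit lay 86 bp from oys, whose transcription runs towards COX7C, and the ATPsynF summit 62 bp from CG3548. For none of these can the strongest summit be given to 1 gene of the pair from its position.

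At the others the respiratory gene's TSS was as close or closer. The neighbours were corolla (120 bp from the ND-24 summit; a protein of the synaptonemal complex), CG13994 (150 bp from that of ND-51), RhoGAP68F (201 bp from that of ND-SGDH), p115 (153 bp from that of ND-MNLL; a Golgi tether) and hiw (414 bp from that of ND-B18; a ubiquitin ligase of the synapse). They were Sec3 (141 bp; exocyst) for COX7B, glo (100 bp; an RNA-binding protein) for COX5A, Rpp20 and CG33932 (61 bp) for COX6B, and CG11076 (67 bp) for ATPsynbeta.

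**Figure D4:**
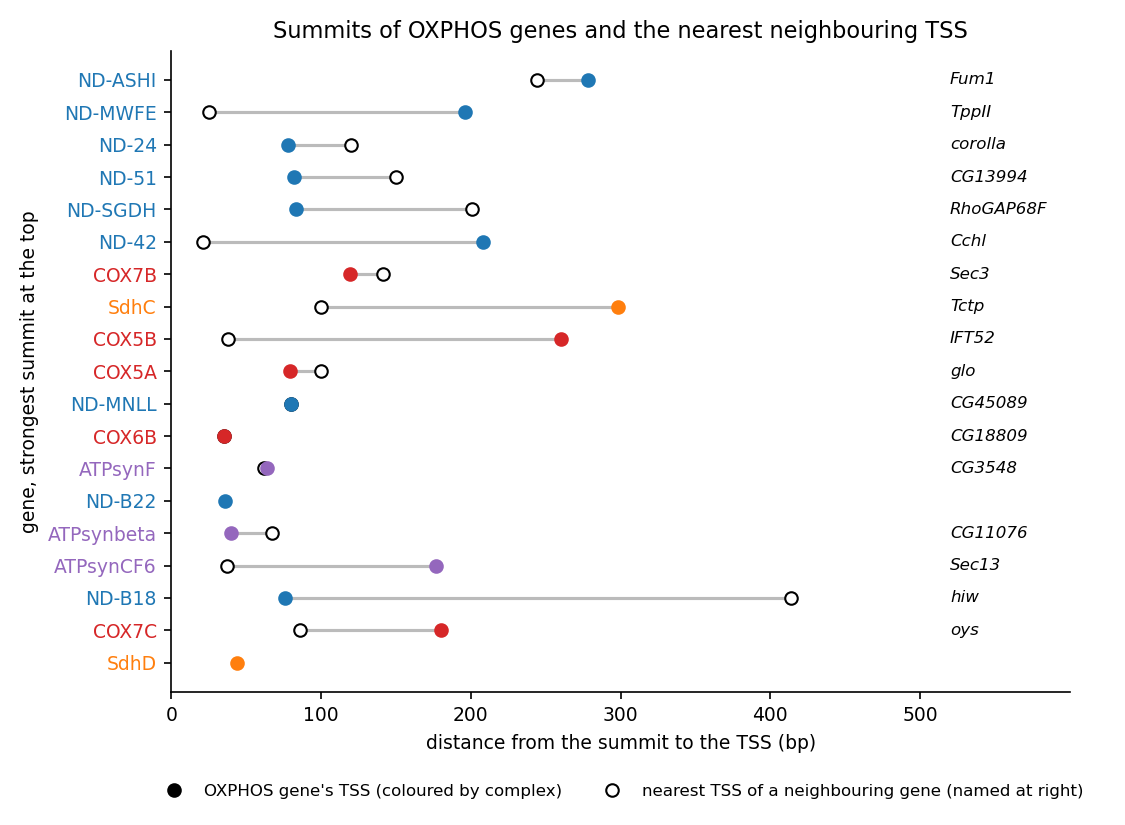
Distance in bp from the strongest summit of each of the 19 genes to the nearest TSS of the respiratory gene (filled, coloured by complex) and to the nearest TSS of a neighbouring protein-coding gene within 500 bp (open, named at right), with the strongest of the 19 at the top. The open point is nearer to 0 than the filled one in 8 genes, the 2 coincide for ND-MNLL and COX6B, and ND-B22 and SdhD have no open point.

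The respiratory genes were therefore also divided by whether another protein-coding gene's TSS lay within 500 bp of one of their own, a division made after the values were seen. With such a neighbour, 17 of 41 had a summit (41.5%), against 39.1% of all genes so placed. Without one, 2 of 46 had a summit (4.35%), ND-B22 and SdhD, against 18.1% of all genes so placed. In replicate 1 the shares of all genes were 41.4% with and 18.0% without a neighbour, in replicate 2 they were 43.8% and 20.0%, and in replicate 3 they were 39.3% and 17.6%. The respiratory genes stood at 17, 19 and 15 of the 41 with a neighbour (41.5% ± 4.88, SD, n = 3) and at 3, 5 and 3 of the 46 without one (7.97% ± 2.51, against 18.6% ± 1.29 for all genes). In each replicate the share without a neighbour was lower than that of all genes so placed. Of the 46, 21 are copies named with L, none of which had a pooled summit, and among the other 25 the count was 2 (8.00%; 12.0% ± 4.00 over replicates, SD, n = 3).

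The strongest summit of each gene lay between 35 and 298 bp from the nearest TSS of the respiratory gene. It lay upstream in 17 of 19 cases (89.5%), against 81.4% of all genes with a promoter summit, and the median distance was 82 bp against 142 bp. For mitochondrial ribosomal protein genes these values were 97.1% and 166 bp, and for cytoplasmic ones 83.9% and 52.5 bp. ND-24 and COX7C were the 2 with a downstream summit. By chromosome, summits were seen at 3 of 16 genes on 2L, 3 of 17 on 2R, 2 of 20 on 3L, 5 of 19 on 3R, 5 of 13 on X and 1 of 2 on chromosome 4, beside shares for all genes of 22.1%, 23.1%, 25.7%, 25.1%, 27.8% and 20.0%.

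Promoters were searched, on both strands, from 250 bases before to 50 after the TSS nearest to the summit, or the canonical TSS where there was none. The word GGTCACAC, the core of motif 1, a core-promoter element of widely expressed fly genes, was present in 16 of the 87 promoters (18.4%) and in 7.32% of all 13968. GGTATTTT, the core of motif 6, was in 10 (11.5%, against 5.05%), and the E-box CAGCTG in 23 (26.4%, against 18.0%). The DRE TATCGATA was in 8 (9.20%, against 8.93%) and TATAAA in 45 (51.7%, against 45.3%). The NRG element (TTACATAA, TTACGTAA or TTATATAA) was in 5 (5.75%, against 5.13%), and its last word can overlap that of the TATA box. The GAGA word GAGAG was in 21 (24.1%, against 30.8%), CACGTG in 4 (4.60%, against 4.21%), TGCGCA, the core of the site of the vertebrate factor NRF-1, in 4 (4.60%, against 7.07%) and AAGGTCA, the site word of the estrogen-related receptor, in 1 (1.15%, against 2.05%). Such matches describe the letters and do not show that a factor binds there.

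The copies and the other genes differed in these words. GGTCACAC was in 15 of the 63 genes without an L name (23.8%) and in 1 of the 24 copies (4.17%), and GGTATTTT in 10 (15.9%) and 0. CAGCTG was in 21 (33.3%) and 2 (8.33%), and TATCGATA in 8 (12.7%) and 0. GAGAG was the reverse, in 11 of the 63 (17.5%) and 10 of the 24 (41.7%).

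The 19 promoters with a summit were set beside the 68 without one, with no test. GGTCACAC was in 3 of the 19 (15.8%) and 13 of the 68 (19.1%), and GGTATTTT in 1 (5.26%) and 9 (13.2%). The NRG element was in 3 of the 19 (15.8%) and 2 of the 68 (2.94%). Over all 3436 genes with a promoter summit these 3 shares were 9.02%, 6.14% and 5.18%, against 7.32%, 5.05% and 5.13% of all promoters. For the NRG element the shares over all genes were thus nearly the same. CAGCTG was in 6 (31.6%) and 17 (25.0%), TATAAA in 12 (63.2%) and 33 (48.5%), GAGAG in 4 (21.1%) and 17 (25.0%), and TATCGATA in 1 (5.26%) and 7 (10.3%). In the 101 bases centred on the summit, CAGCTG was present at 4 of 19 genes (21.1%), against 5.21% of all genes with a promoter summit, and the NRG element at 2, ND-SGDH and ND-MNLL (10.5%, against 2.39%). TATAAA was at 6 (31.6%, against 20.4%), TATCGATA at SdhC and GAGAG at 1 gene (5.26% each, against 3.61% and 11.6%), and the other words at none. With 19 genes, 1 gene is 5.26% of them, and these shares rest on few genes.

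**Figure D5:**
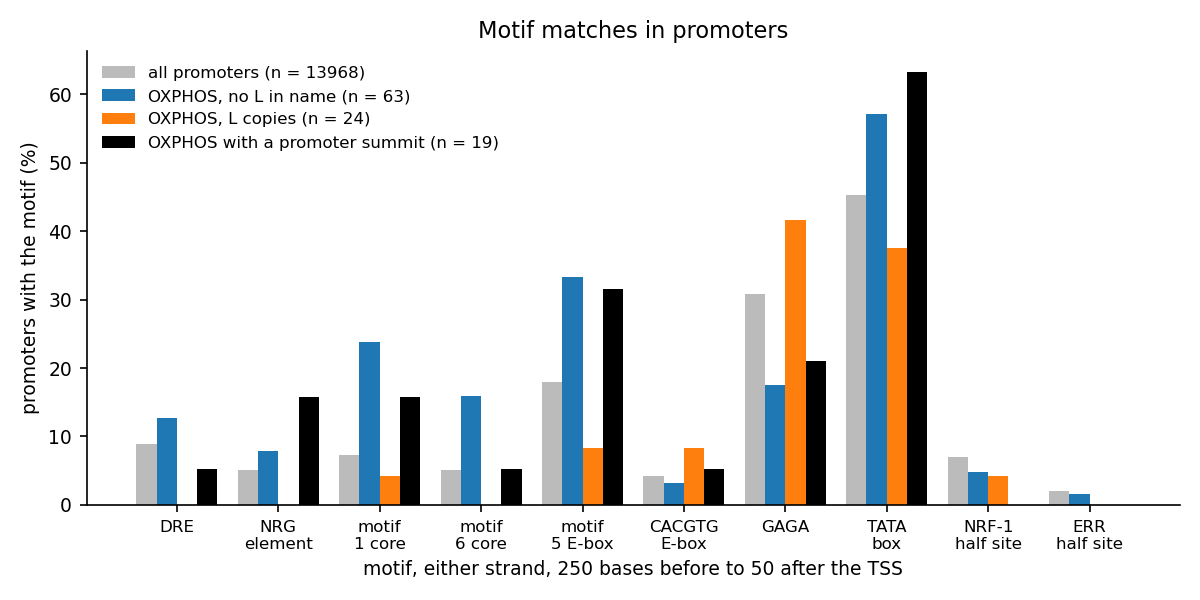
Share of promoters, in percent, that hold each word on either strand from 250 bases before to 50 after the TSS, for all 13968 promoters (grey), the 63 respiratory genes without an L name (blue), the 24 copies (orange) and the 19 respiratory genes with a promoter summit (black). The motif 1 core stands at 23.8% in the 63 genes and 4.17% in the copies, and GAGA at 17.5% and 41.7%.

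Genes of the same pathway that the naming rule leaves out were taken from fixed lists, in full. These are read against the 24.6% of all genes. The first list has 9 further genes. They encode subunits, except for Cyt-c-d and Cyt-c-p, which encode cytochrome c, the electron carrier between complexes III and IV. Among these 9 genes, 3 had a promoter summit (33.3%; 40.7% ± 6.42 over replicates, SD, n = 3). They were Cyt-c-d, the testis form of cytochrome c, at place 400 (443, 565 and 348 in the replicates), blw, the alpha subunit of ATP synthase, at 862 (490, 687 and 1740), and levy, of complex IV, at 1597 (1806, 1766 and 1614). Cyt-c1, RFeSP, ox, Cyt-c-p, cype and sun had none. Cyt-c1, RFeSP and ox belong to complex III, which thus had no promoter summit in the thresholded list at any gene counted here. With regions below the threshold, 7 of these 9 further genes had a region in the whole pooled list (77.8%, against 40.1% of all genes). The alpha subunit gene blw was among the strongest 899 places, and the beta subunit gene ATPsynbeta was at place 6545. The Cyt-c-d summit, 389 bp downstream of its TSS, was shared with CG31808, and that of levy with wmd. Neither can be given to 1 gene of the pair from its position.

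Of 11 assembly factors matched, 4 had a promoter summit (36.4%; 30.3% ± 5.25 over replicates, SD, n = 3). CIA30, an assembly factor of complex I, stood at place 72 (50, 112 and 99 in the replicates), Cox17, a copper chaperone for complex IV, at 1513, Sirup, an assembly factor of complex II, at 6184, and Coa7 at 7920. Scox, Surf1, Cox10, Cox11, Sdhaf3, Bcs1 and Ccdc56 had none. Of 14 genes of pyruvate dehydrogenase and the TCA cycle, 6 had one (42.9%), and in the replicates 9, 9 and 7 did (59.5% ± 8.25, SD, n = 3). The 6 were Fum1 (475, the summit of ND-ASHI), Idh3g (808), mAcon1 (1186), Idh3b (2369), muc (4875) and kdn (7068). Of 5 regulators of nuclear mitochondrial genes, 1 had one (20.0%; 26.7% ± 11.5 over replicates, SD, n = 3). This was ERR, which encodes the estrogen-related receptor, at place 1183 (1037, 1502 and 1221 in the replicates), and ewg, Ets97D, srl and TFAM had none. The summits of CIA30 (with CG7601), Coa7 (Rab21), mAcon1 (CG43345 and CG43346), Idh3g (CG4743) and ERR (Atg18a) were also shared. Their position does not give them to 1 gene alone. In the whole pooled list 6 of the 11 assembly factors had a region (54.55%). So did 11 of the 14 pyruvate dehydrogenase and TCA cycle genes (78.6%) and 3 of the 5 regulators (60.0%), against 40.1% of all genes.

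The protein-coding genes of mitochondrial and cytoplasmic ribosomes, whose products are also needed in most cells, gave higher shares. A promoter summit lay at 34 of 73 mitochondrial ribosomal protein genes (46.6%; 44.3% ± 2.85 over replicates, SD, n = 3) and at 56 of 88 cytoplasmic ones (63.6%; 67.0% ± 3.94), against 21.8% of the respiratory genes (23.8% ± 3.51) and 24.6% of all genes. The gaps between these means exceeded the spread between replicates, with no test made across genes. Of the mitochondrial ribosomal protein genes 74.0% had another gene's TSS within 500 bp, against 47.1% of the respiratory genes. With such a neighbour 30 of 54 of them had a summit (55.6%) against 41.5% of the respiratory genes, and without one 4 of 19 (21.1%) against 4.35%. These respiratory shares include the 24 copies named with L, none of which had a pooled summit. For the 63 other respiratory genes the share was 30.2% (31.7% ± 4.76 over replicates, SD, n = 3). It was 44.7% of those with such a neighbour and 2 of 25 (8.00%) without one. Of the cytoplasmic ribosomal protein genes 38.6% had such a neighbour, fewer than of the respiratory genes, and a summit lay at 76.5% of those with one and 55.6% of those without.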

How the data were processed

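The deposited lists hold a signal value per region, a score with no fixed range that the authors derived from alignments of the ChIP and of a control, per the deposited notes. Not given in the sources used here were the aligner, the peak caller and the cutoff of reproducibility. Lists on dm6 were used and those on dm3 were not. Chromatin was sonicated to 200 to 800 bp, per the labels, which limits the precision of a summit. TSSs came from Ensembl release 115 (BDGP6.54), with Python 3.11.15 and pandas 2.3.3, and the counting was checked on simulated data. Every one of the 87 genes is named; full values are given for up to 5 genes per complex with the strongest summit, and neighbours are named where they share a summit. The members and lists were chosen with earlier results of these data known. The split by neighbouring TSS and that by core subunit were made after the values were seen. Listed symbols Cox15, Cox18, Ndufaf3, Foxred1 and Ecsit matched no annotated symbol and are not analysed here. Distances, thresholds, TSS choice and replicates were varied.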

Additional observations from a re-analysis of the deposited data

How the results depend on the processing

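The 19 respiratory genes became 11 with the stronger 50% of the list, 32 with the whole pooled list, 12 when a summit went only to the gene with the nearest TSS, 9 when it had to be found in all 3 replicates and 12 when this was judged within 250 bp. Requiring both remaining replicates gave 11 to 14, leaving out each replicate in turn, with 12 without replicate 1 and 11 without replicate 2. The summits counted were still those of the list pooled from all 3 replicates, so under this requirement a count could only fall. The counts at 250 bp (16), at 1000 bp (24), with canonical TSSs (19), with regions covering a TSS (14) and without the 20 copies whose parent gene is also counted (19 of 67, 28.4%; the other 4 L-named genes kept) stayed within 1.5 times. With canonical TSSs the respiratory share was 21.8%, and that of all genes was also 21.8%. Over all genes the share moved from 24.6% to 15.5% with the stronger 50% and 40.1% with the whole list, and lay between 18.3% and 18.8% without each replicate in turn. The replicate mean of 23.8% became 42.1% ± 8.32 (SD, n = 3; all genes 43.0%) with whole replicate lists and 12.6% ± 1.15 (all genes 15.9%) with regions for 50% of the number.

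By complex, the whole list gave 16 genes in complex I, 2 in III and 5 in V, and the stronger 50% gave 1 in II, 3 in IV and 0 in V. A limit of 250 bp gave 1 in II, and 1000 bp gave 1 in III. The nearest TSS gave 1 in II, 3 in IV and 1 in V, and regions covering a TSS gave 1 in II. Summits in all 3 replicates gave 5 in I, 1 in II, 3 in IV and 0 in V, and within 250 bp gave 5 in I, 2 in II, 3 in IV and 2 in V, so the low counts in II and V rest on the 100 bp limit. Without each replicate in turn the counts were 6 to 7 in I, 1 to 2 in II, 0 in III, 3 to 4 in IV and 0 to 2 in V. For complex V it was 0 without replicate 1 and 1 without replicate 2, for complex II 1 without replicate 2 or 3, and for complex IV 3 without replicate 2. The cause of these changes was not tested beyond what a stricter or looser requirement removes or adds. No paired analysis was possible because the 3 replicates form 1 group and no test was run. Counts per complex rest on few genes, and the lists give no read depth.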
